A study of Mus musculus with 36 samples.

Results

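Interferon-stimulated genes are the genes that cells switch on when they sense interferon, and 34 of them were followed here by symbol through all brain regions, genotypes, diets and sorted microglia. Each of the 34 matched 1 of the 24940 genes counted. The mice came from a study of multiple system atrophy (MSA), a disease in which α-synuclein builds up in oligodendrocytes. MSA mice carried the MBP29-hα-syn transgene, which places human α-synuclein under the myelin basic protein promoter, active in oligodendrocytes; control mice of the bulk tissue are given in the protocols as wild type. Male mice of both genotypes were fed either PLX5622 at 1200 mg/kg in AIN-76A chow, which blocks CSF1R, the receptor whose signal keeps microglia alive, or AIN-76A alone, called placebo. Feeding ran for 12 weeks from the age of 4 weeks.

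Poly(A) RNA of cortex was sequenced from 3 libraries in each of the 4 groups. Corpus callosum had 2 libraries each of MSA mice on PLX5622, MSA mice on placebo and control mice on PLX5622, and 3 of control mice on placebo. Striatum had 2 libraries of MSA mice on PLX5622, 3 of MSA mice on placebo, and 2 each of control mice on PLX5622 and on placebo. Microglia were sorted as CD11b-positive, CD45-low cells from forebrain of mice 16 weeks old, 3 libraries per genotype and without a diet arm. The MSA microglia are labelled as homozygous and the control microglia as heterozygous for MBP29, although the protocol speaks of wild-type mice, so the controls of the sort may carry the transgene. The control striatum PLX5622 libraries carry a tag of no treatment beside a title that names the drug. Genes of homeostatic microglia summed to 38.1 to 55.9 CPM, counts scaled to library size, in those libraries, against 754 to 755 CPM in control placebo striatum, and the title was followed.

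Sorted microglia libraries held 5.95 to 12.1 M assigned counts each. In bulk tissue the range was 4.59 to 28.6 M for callosum, 5.18 to 11.3 M for striatum and 4.36 to 9.79 M for cortex. Libraries of different regions may come from the same mouse, which no label resolves. A p-value here therefore reflects only how much the libraries vary, and may be too small in fits over several regions. Levels are CPM of the counts assigned to genes, with SD over libraries. Tests are edgeR's 2-sided quasi-likelihood F test, fitted over all genes that pass a filter on low counts, and a gene was called at a Benjamini-Hochberg adjusted p under 0.05. Log2 changes carry their standard error.

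Type I interferons bind a receptor whose kinases JAK1 and TYK2 pass the signal to the complex ISGF3, which holds STAT2 and IRF9 and binds the interferon-stimulated response element in promoters. Interferon gamma acts mainly at another promoter element, the gamma-activated site. In the brain, microglia, astrocytes, neurons and endothelial cells can all respond, and the products sense foreign RNA and DNA, block translation, coat or trap viruses and feed back on the signal itself. Ligand transcripts were nearly absent. Of 10 interferon genes, among them Ifnb1 and Ifng, none passed the filter in any fit. They summed to 18 counts over the 30 bulk libraries and 4 counts over the 6 microglia libraries.

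The promoters of the members were searched for both elements. RefSeq start sites on GRCm38.p6 were matched for 28 of the 34 members, and a window of 250 bases before to 50 bases after the start was searched on both strands. A gene was counted once if any of its windows held a match. The core of the interferon-stimulated response element, read as GAAA, any 2 bases and GAAA again, stood in 17 of 28 members (60.7%) and in 1079 of all 27025 genes (3.99%). The core of the gamma-activated site, TTC, any 3 bases and GAA, which reads alike on both strands, stood in 8 of 28 members (28.6%) and in 9.55% of all genes. A match is a description of letters and not a shown binding site. The first 4 stretches below belong to genes that were not called higher in microglia than in cortex, and the other 6 to genes that were. Each is written 5′ to 3′ on the strand of its gene, with the matched core or run of cores in capitals.
Isg15, chr4:156200863-156200908, minus strand: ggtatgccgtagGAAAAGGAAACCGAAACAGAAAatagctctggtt
Ifit1, chr19:34640792-34640825, plus strand: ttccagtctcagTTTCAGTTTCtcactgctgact
Ifit3, chr19:34583395-34583428, plus strand: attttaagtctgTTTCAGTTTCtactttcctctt
Rsad2, chr12:26456551-26456584, minus strand: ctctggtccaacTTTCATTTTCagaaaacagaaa
Igtp, chr11:58199510-58199543, plus strand: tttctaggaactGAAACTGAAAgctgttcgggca
Irgm1, chr11:48871423-48871462, minus strand: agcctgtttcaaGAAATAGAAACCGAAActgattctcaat
Gbp2, chr3:142620592-142620625, plus strand: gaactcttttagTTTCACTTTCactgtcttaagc
Gbp7, chr3:142530271-142530304, plus strand: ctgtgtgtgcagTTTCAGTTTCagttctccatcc
Oas1a, chr5:120907526-120907557, minus strand: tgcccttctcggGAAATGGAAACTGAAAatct
Bst2, chr8:71537575-71537614, minus strand: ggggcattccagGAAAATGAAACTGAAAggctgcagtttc
The core stood in 11 of the 20 matched members that were called higher in microglia and in 6 of the 8 that were not. Isg15, Irgm1, Oas1a and Bst2 hold runs of overlapping or adjoining cores. Ifit1, Ifit3, Rsad2, Gbp2 and Gbp7 hold the core on the other strand, where it reads TTTC, 2 bases and TTTC. Each stretch shows only the core or run nearest before the start site. Ifit1 and Ifit3 each hold a further core upstream of the one shown. Some members also lie close together in the genome. On chromosome 11, which holds 8 members, Slfn2 and Slfn5 are near each other, while Irgm1, Igtp and Lgals3bp lie far apart. The neighbours Ifit1, Ifit2 and Ifit3 lie on chromosome 19. Gbp2, Gbp3 and Gbp7 lie together on chromosome 3, with Ifi44 further off.

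**Figure D1:**
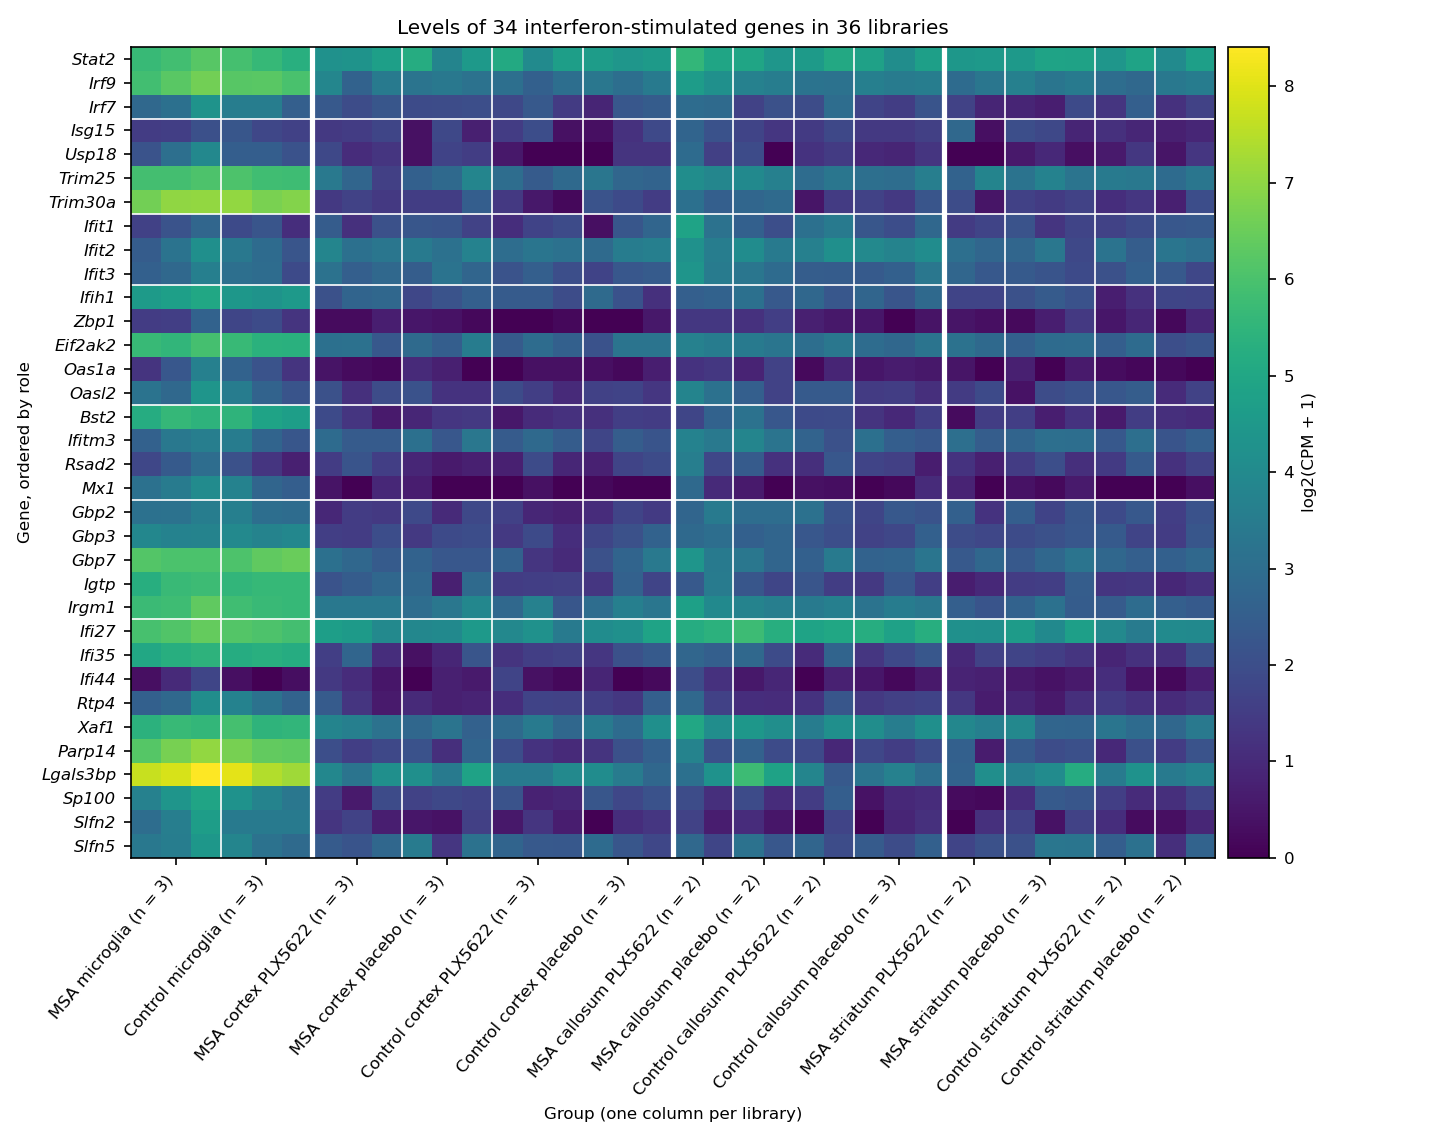
Heat map of log2(CPM + 1) for the 34 genes (rows, ordered by role) in the 36 libraries (columns, grouped by tissue, genotype and diet; white lines separate groups). The 6 microglia libraries are brighter for most rows, with members summing to 994 to 1600 CPM, against 116 to 422 CPM in the 30 bulk libraries, and the rows of Ifit1, Ifit2, Ifit3 and Rsad2 are exceptions.

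In bulk brain the members were expressed at low levels. The median over the 30 bulk libraries was under 10 CPM for 30 of 34 members and under 5 CPM for 23. Summed over the 34 genes, levels were 168 to 422 CPM in callosum, 120.4 to 209 CPM in cortex and 116 to 198 CPM in striatum. Between genes, levels can be compared per transcript length, in the authors' TPM values. On that scale Ifi27, a small interferon-induced mitochondrial protein, ranked first in placebo control cortex (25.5 ± 4.38 TPM), callosum (41.97 ± 6.77 TPM) and striatum (20.9 ± 0.359 TPM). Ifitm3, which hinders fusion of viruses with host membranes, ranked second in each of the 3 regions, with 7.14 ± 2.396 TPM in cortex, 10.9 ± 4.04 TPM in callosum and 9.42 ± 2.19 TPM in striatum. Control microglia had another order. Lgals3bp, a secreted galectin-binding glycoprotein, ranked first there at 128 ± 40.6 TPM, before Ifi27 at 89.6 ± 7.61, Bst2 at 60.7 ± 17.5, Trim30a at 44.3 ± 4.66 and Irf9 at 39.9 ± 4.06 TPM. The SD of Lgals3bp overlaps the level of Ifi27, and neighbours in these orders often lie within their spread.

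No member was called between regions. In placebo control mice, 0 of 33 members were called by edgeR between callosum and cortex, where 2.94% of all tested genes were called, with 2 members at an unadjusted p under 0.05 and 1 by DESeq2. That member was Sp100, a protein of nuclear bodies, at 0.795 ± 0.414 CPM in callosum and 3.21 ± 0.674 CPM in cortex (log2 change -2.08 ± 0.69, adjusted p = 0.114 by edgeR). Between striatum and cortex 0 of 33 were called as well, where 12.9% of all genes were, with 2 members at an unadjusted p under 0.05 and 0 by DESeq2. These were Eif2ak2, the RNA-dependent kinase PKR (log2 change -1.05 ± 0.41, adjusted p = 0.0911), and Irgm1 (-1.03 ± 0.40, adjusted p = 0.0982), with lower values in striatum. Without control placebo cortex library 1, Eif2ak2 passed the threshold (adjusted p = 0.0202). Of 52 further interferon-stimulated genes, 41 were tested and 4 were lower in striatum, among them Ly6e, a membrane protein that restricts viral entry, at 48.7 ± 15.3 CPM in striatum and 174 ± 61.6 CPM in cortex, and Herc6, the mouse ligase that attaches ISG15, at 4.31 ± 0.689 CPM in striatum and 14.8 ± 3.39 CPM in cortex. Of 14 receptor and JAK-STAT genes, 3 were lower in striatum and 1 was higher. Socs3, a feedback inhibitor of JAK kinases, had 0.796 ± 0.381 CPM in striatum and 6.51 ± 2.08 CPM in cortex, and Jak2, a kinase of the interferon gamma receptor, had 84.7 ± 2.49 CPM in striatum and 44.4 ± 0.655 CPM in cortex. Ifngr2, the second chain of the interferon gamma receptor, was lower in striatum (-1.27 ± 0.30, log2), as was Shisa5 of the further genes (-1.25 ± 0.25).

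Sorted control microglia held far more of these transcripts than control placebo cortex. Of 33 members tested, 26 were higher in microglia and 0 lower, with a median log2 change of 2.36, against -0.26 over all genes. Of all 14946 genes tested, 32.9% were called higher and 42.8% lower, 75.7% in all. For 17 of these 33 members, all 6 microglia libraries lay above all 30 bulk libraries, as they did for 22.4% of all genes tested. Microglia were dissociated and sorted while cortex was extracted from frozen tissue, so cell type and preparation cannot be told apart in these folds.

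All 3 factors of interferon signal transduction were higher. Irf9, the DNA-binding subunit of ISGF3, had 73.7, 76.2 and 62.3 CPM in control microglia and 9.08, 7.25 and 9.86 CPM in control cortex (log2 change 3.11 ± 0.21, adjusted p = 3.2e-08). Its partner Stat2 had 59.9, 48.9 and 38.7 CPM in microglia, against 24.2, 20.6 and 23.1 CPM in cortex (1.20 ± 0.31, adjusted p = 0.00325). Every microglia library lay above every cortex library for both genes, but the fold of Stat2 was far smaller. Irf7, which amplifies type I interferon production, had 10.8, 10.8 and 4.87 CPM in microglia and 0.838, 3.88 and 4.47 CPM in cortex (1.63 ± 0.55, adjusted p = 0.0162).

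Of the 4 genes of the ISG15 pathway and the TRIM ligases, 3 were higher. Trim30a, a TRIM protein of mouse macrophages, had 130.3, 105 and 114 CPM in microglia, against 3.49, 2.72 and 1.85 CPM in cortex (5.50 ± 0.35, adjusted p = 1.67e-08), the smallest p of the members. Trim25, a ligase that helps activate RIG-I, had 66.4, 56.5 and 54.9 CPM in microglia and 8.94, 5.83 and 5.39 CPM in cortex (3.21 ± 0.33). Usp18, which removes ISG15 and damps receptor signalling, was also higher (2.26 ± 0.81, adjusted p = 0.0216). Isg15 itself, the ubiquitin-like modifier, had 3.75, 2.45 and 2.06 CPM in microglia and 0.279, 1.29 and 2.62 CPM in cortex, so the groups overlapped and the difference was not called (1.10 ± 0.71, adjusted p = 0.173).

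None of the 3 IFIT genes, whose proteins bind foreign RNA ends, was called. Ifit3 had 7.37, 6.85 and 2.72 CPM in microglia and 2.23, 3.88 and 4.31 CPM in cortex, with a log2 change of 0.78 ± 0.45 and a 95% interval of -0.19 to 1.75. Ifit1 averaged 2.501 ± 1.27 CPM in microglia and 3.25 ± 2.75 CPM in cortex, with an interval of -1.80 to 1.28. Ifit2 averaged 6.54 ± 2.87 CPM in microglia and 9.48 ± 2.54 CPM in cortex, with an interval of -1.44 to 0.54. The highest upper bound of these 3 intervals lies below the log2 changes of 23 of the 26 members that were called. Those changes have errors of their own, and some, such as those of Ifi27 and Oasl2, lie within their error of that bound.

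All 5 nucleic acid sensors and effectors were higher. Eif2ak2 had 49.7, 40.1 and 38.97 CPM in microglia and 3.35, 8.42 and 8.47 CPM in cortex (2.77 ± 0.33, adjusted p = 6.01e-06). Ifih1, the RNA sensor MDA5, had a log2 change of 2.52 ± 0.44. Oasl2, of the oligoadenylate synthetase family, had 10.6, 5.38 and 3.55 CPM in microglia and 2.09, 2.201 and 1.54 CPM in cortex (1.79 ± 0.57, adjusted p = 0.0121). The 3 Oasl2 values of microglia were spread widely, while those of cortex were close together. Oas1a, which makes the activator of RNase L, was higher by 3.35 ± 1.01 on 84 counts in microglia and 7 in cortex. Zbp1, a sensor of Z-form nucleic acids, had 58 counts in microglia and 3 in cortex, a ratio of summed CPM of 14.9 with a counting interval of 4.85 to 74.3.

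Membrane-linked restriction factors split. Bst2, or tetherin, which holds budding virions at the cell surface, had 43.1, 28.1 and 25.5 CPM in microglia and 1.26, 1.94 and 1.85 CPM in cortex (4.33 ± 0.30, adjusted p = 3.68e-08). Mx1, a dynamin-like antiviral GTPase, had 196 counts in microglia and 1 in cortex (ratio 151, counting interval 26.8 to 5992). Ifitm3 was not called, with 10.6, 5.503 and 3.72 CPM in microglia and 2.37, 4.53 and 3.54 CPM in cortex (0.99 ± 0.46, adjusted p = 0.0688). Rsad2, or viperin, averaged 1.78 ± 1.31 CPM in microglia and 1.93 ± 1.09 CPM in cortex, with an interval of -1.40 to 1.31.

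All 5 interferon-induced GTPases, of families that act against intracellular microbes, were higher. Gbp7 had 65.8, 80.96 and 87.9 CPM in microglia and 3.21, 5.57 and 9.55 CPM in cortex (3.80 ± 0.28, adjusted p = 7.7e-08). Irgm1 had 56.3, 50.99 and 48.96 CPM in microglia and 6.98, 11.4 and 8.94 CPM in cortex (2.60 ± 0.28, adjusted p = 2.11e-06). Gbp2 had 11.3, 7.22 and 6.77 CPM in microglia and 1.12, 2.33 and 1.69 CPM in cortex (2.36 ± 0.40, adjusted p = 0.000156). The groups were separate for all 3 genes, and Gbp2 stayed the lowest of them in microglia. Igtp was higher by 4.06 ± 0.54 and Gbp3 by 2.03 ± 0.29 on the log2 scale. Igtp overlaps Irgm2 on the same strand, and reads of their shared exons may be split between them.

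Of 9 other members tested, 8 were higher, and Ifi44 had too few counts. Lgals3bp had 268, 172 and 148 CPM in microglia and 16.1, 10.4 and 6.01 CPM in cortex (4.23 ± 0.46, adjusted p = 2.7e-06). Parp14, an ADP-ribosyltransferase, had 101, 82.3 and 79.4 CPM in microglia and 1.396, 3.24 and 4.93 CPM in cortex (4.89 ± 0.45, adjusted p = 4.99e-07). Ifi35 had 36.03, 38.5 and 36.1 CPM in microglia and 1.54, 3.24 and 4.16 CPM in cortex (3.73 ± 0.49). In these 3 genes no cortex library came near a microglia library. Xaf1, which antagonises the apoptosis inhibitor XIAP, had 60.4, 43.8 and 45.7 CPM in microglia and 9.91, 6.604 and 17.1 CPM in cortex (2.27 ± 0.28). Ifi27 had 70.9, 66.2 and 59.1 CPM in microglia and 16.1, 17.5 and 28.5 CPM in cortex (1.77 ± 0.23). Ifi27 was the most abundant of these genes in cortex, and its fold was among the smallest called. Slfn5, of the schlafen family, was the only one of the 9 not called (1.14 ± 0.59, adjusted p = 0.0953).

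**Figure D2:**
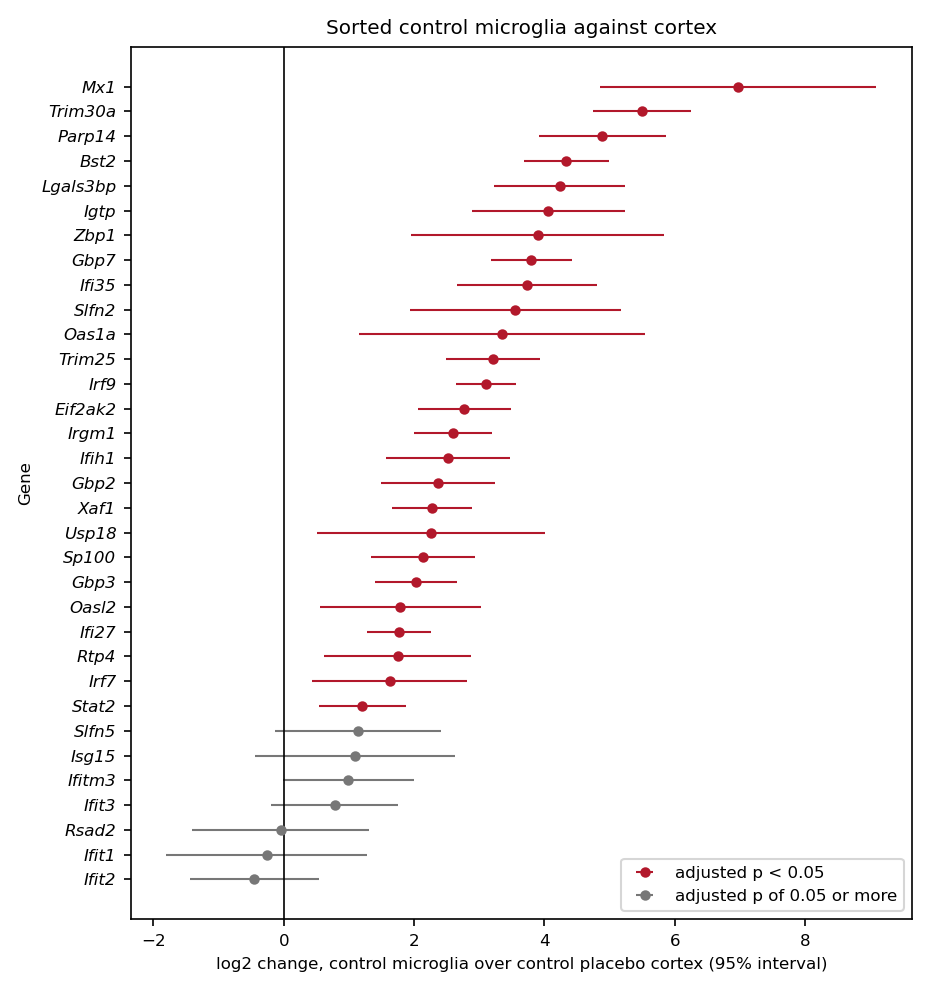
Log2 change of 33 members in sorted control microglia over control placebo cortex (points, with 95% intervals; 3 libraries per group; red, adjusted p under 0.05). The 26 called genes all lie right of 0, from Mx1 and Trim30a at the top to Stat2, and the 7 grey genes, Ifit1, Ifit2, Ifit3, Isg15, Ifitm3, Rsad2 and Slfn5, have intervals that include 0.

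The pathway around the members showed the same split between tissues. All 14 genes of interferon receptors and JAK-STAT signalling were higher in microglia. Of 17 genes that sense nucleic acids upstream of interferon, 15 were higher and 0 lower, with Tmem173, the adaptor STING, at 622 ± 39.4 CPM in microglia and 4.57 ± 0.581 CPM in cortex. Of 39 further interferon-stimulated genes tested, 29 were higher and 3 lower. Markers listed for other cell types were also counted in the sort. Monocyte and neutrophil markers summed to 1032 to 1131 CPM in control microglia, against 8.16 to 13.7 CPM in control placebo cortex. In 2 MSA placebo cortex libraries only 1 of these 8 markers had counts, and it gave 11.3 and 11.9 CPM. In control cortex the sum averaged 1.82 CPM on PLX5622 and 10.2 CPM on placebo. Such a sum can rest on 1 gene and does not by itself show monocytes or neutrophils. Border-associated macrophage markers summed to 875 to 920.2 CPM and choroid plexus markers to 529 to 1197 CPM in the control microglia, against 22.2 to 32.5 CPM and 22.1 to 581 CPM in control placebo cortex, while T and NK cell markers stayed at 1.22 to 2.15 CPM in microglia. The part of these cells in the members' levels was not tested.

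Microglial transcripts were far lower in control brains on PLX5622, and no member was called in any region. The 20 homeostatic microglia genes had median log2 changes of -7.70 in control cortex, -5.71 in callosum and -6.84 in striatum under the drug, with 19, 19 and 18 of them lower. In bulk tissue, fewer cells of a type and less RNA per cell cannot be told apart. The members' medians were -0.38, 0.17 and 0.25. In control cortex 0 of 30 members were called by edgeR, where 0.486% of all genes were, with 2 at an unadjusted p under 0.05 and 0 by DESeq2. In control callosum 0 of 34 were called, against 0.46% of all genes, with 2 at an unadjusted p under 0.05 and 0 by DESeq2. In control striatum 0 of 30 were called, against 0.336% of all genes, with 0 at an unadjusted p under 0.05 and 0 by DESeq2.

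The intervals of the members were set beside the fall of the microglial genes. Homeostatic genes summed to a mean of 83627 CPM in control microglia and 859 CPM in control placebo cortex. The members summed to 1126 and 166 CPM. Genes less concentrated in microglia need not fall as far when microglia are lost. The intervals therefore cannot show whether members withstood that loss. The 95% interval of every tested member lay above the homeostatic median, in 30 of 30 members in control cortex, 34 of 34 in callosum and 30 of 30 in striatum. The lowest log2 change was that of Usp18 in cortex at -2.77, on 2 counts in the 3 treated libraries, Trim30a in callosum at -1.35 and Ifih1 in striatum at -1.25. Parp14, which microglia held at far higher levels than cortex, had 2.98, 1.33 and 1.02 CPM in control cortex on PLX5622 and 1.396, 3.24 and 4.93 CPM on placebo (-0.84 ± 0.65, interval -2.25 to 0.57). Trim30a had 1.61, 0.444 and 0.145 CPM on PLX5622 and 3.49, 2.72 and 1.85 CPM on placebo, so the groups did not overlap, but the change missed the threshold (-1.96 ± 0.75, adjusted p = 0.9998, edgeR). In control cortex 1 of 30 members was lower and 0 higher on the drug without overlap, against 3.79% and 1.49% of all genes. Without the libraries in which under 70% of reads were assigned to genes, Trim30a averaged over regions passed the threshold (log2 change -2.02 ± 0.47, adjusted p = 0.0296 by edgeR). With all libraries its log2 change was -1.24 ± 0.46, and it was not called.

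The 10 members that follow overlapped between diets in control cortex. In control cortex Lgals3bp had 9.86, 10.1 and 14.4 CPM on PLX5622 and 16.1, 10.4 and 6.01 CPM on placebo (0.10 ± 0.44). Irgm1 had 6.19, 12.0004 and 3.78 CPM on PLX5622 and 6.98, 11.4 and 8.94 CPM on placebo. Bst2 had 0.459, 1.04 and 1.31 CPM on PLX5622 and 1.26, 1.94 and 1.85 CPM on placebo. The ranges overlapped in all 3 genes. Stat2 had 33.3, 15.1 and 25.1 CPM on PLX5622 and 24.2, 20.6 and 23.1 CPM on placebo. Irf7 had 2.52, 4.15 and 1.74 CPM on PLX5622 and 0.838, 3.88 and 4.47 CPM on placebo. Isg15 had 1.83, 2.96 and 0.291 CPM on PLX5622 and 0.279, 1.29 and 2.62 CPM on placebo, and Isg15 ranged several-fold on each diet. Ifit3 had 3.44, 4.89 and 3.05 CPM on PLX5622 and 2.23, 3.88 and 4.31 CPM on placebo. For none of these genes did the diets separate. Ifitm3 had 4.36, 6.37 and 4.51 CPM on PLX5622 and 2.37, 4.53 and 3.54 CPM on placebo. Oasl2 had 2.75, 1.93 and 1.02 CPM on PLX5622 and 2.09, 2.201 and 1.54 CPM on placebo. Gbp2 had 2.06, 0.889 and 0.727 CPM on PLX5622 and 1.12, 2.33 and 1.69 CPM on placebo. These 3 genes overlapped as well, with Ifitm3 leaning higher on the drug.

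Control striatum, whose libraries the comparison of microglia and cortex did not use, also had no member called on the drug. Trim30a had 1.15 and 1.49 CPM on PLX5622 and 0.658 and 2.93 CPM on placebo (-0.45 ± 0.88, interval -2.37 to 1.47). Lgals3bp had 9.703 and 18.6 CPM on PLX5622 and 10.1 and 12.3 CPM on placebo (0.36 ± 0.60). Bst2 had 0.522 and 1.91 CPM on PLX5622 and 1.19 and 1.07 CPM on placebo. The placebo libraries themselves differed several-fold for Trim30a. Oasl2, with 3.86 and 4.57 CPM on PLX5622 and 1.05 and 2.13 CPM on placebo, was higher in each treated library, and was not called (1.40 ± 0.78, adjusted p = 0.99998). In control striatum 4 of 30 members were higher and 4 lower on the drug without overlap, against 10.1% and 15.6% of all genes. Over the 3 regions the log2 change of Oasl2 was 0.92 ± 0.37 (adjusted p = 0.652, edgeR).

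**Figure D3:**
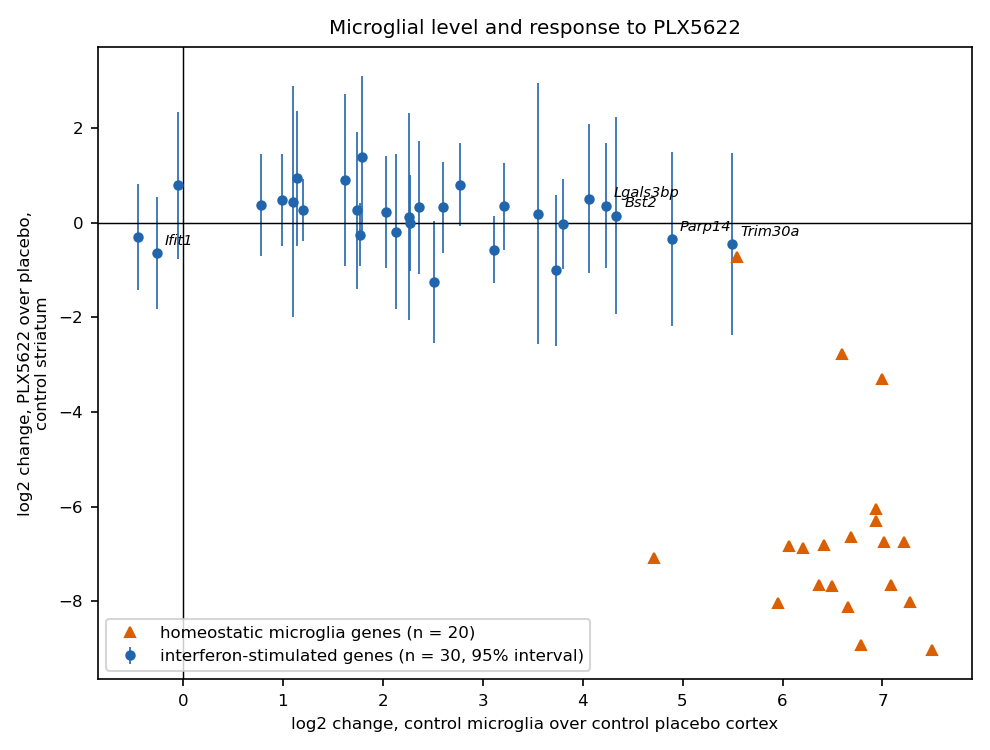
Log2 change in control striatum, PLX5622 over placebo (vertical, 2 libraries each), against log2 change of control microglia over control placebo cortex (horizontal, 3 libraries each), for 30 members (blue, with 95% intervals) and 20 homeostatic microglia genes (orange). The blue points stay within -1.25 and 1.40 on the vertical axis at all horizontal positions, while the orange points have a median of -6.84 and reach from -0.73 to -9.04. The smaller changes of the blue points do not show whether members withstood the loss of microglia.

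Some pathway genes around the members did fall with the drug. Averaged over the 3 regions of control brains, 0 of 33 members were called, against 1.38% of all genes, with 3 members at an unadjusted p under 0.05 and 0 by DESeq2. In the same fit 6 genes of the pathway lists fell. Irf8, a transcription factor of the myeloid lineage, had a log2 change of -2.21 ± 0.24 (adjusted p = 6.89e-07, edgeR). The log2 change was -4.84 ± 0.53 for Tmem173, -5.74 ± 0.66 for Tlr7, a sensor of single-stranded RNA, and -2.93 ± 0.41 for Irf5, which acts below it. Lgals9 had a log2 change of -1.40 ± 0.34, and Slfn8 also fell. On PLX5622, Tlr7 averaged 0 CPM in control callosum and 0.106 CPM in control striatum. Tmem173 averaged 0.117 and 0.0522 CPM there. With so few reads the size of the falls of Tlr7 and Tmem173 is uncertain.

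In MSA brains the drug left more microglial transcripts, with homeostatic medians of -1.81 in cortex, -2.30 in callosum and -2.01 in striatum. No member was called there either. By edgeR 0 of 30 members were called in MSA cortex, against 0.0548% of all genes, with 1 at an unadjusted p under 0.05 and 0 by DESeq2. In MSA callosum it was 0 of 34, against 0.0693% of all genes, with 5 at an unadjusted p under 0.05 and 0 by DESeq2. In MSA striatum it was 0 of 30, against 0.074% of all genes, with 3 at an unadjusted p under 0.05 and 1 by DESeq2. The 1 member called by DESeq2 was Sp100, at 0.193 and 0.136 CPM in MSA striatum on PLX5622 and 1.14, 4.16 and 3.78 CPM on placebo (-4.10 ± 1.00, adjusted p = 0.169 by edgeR and 0.0454 by DESeq2). The 2 treated libraries hold 1 and 1 counts of it, so the fold rests on very few reads. Without MSA striatum placebo library 1, edgeR called Sp100 as well (adjusted p = 0.0267). Usp18 had no count in the 2 MSA striatum PLX5622 libraries, against 0.488, 0.9599 and 0.2701 CPM on placebo, and the depth sets no usable fold. The interval lay above the homeostatic median for 25 of 30 members in MSA cortex, 32 of 34 in callosum and 20 of 30 in striatum. The limit given for control brains holds here too. Averaged over regions, 0 of 33 members were called, against 2.31% of all genes, with 4 at an unadjusted p under 0.05 and 1 by DESeq2. That 1 was Lgals3bp (-1.05 ± 0.35, adjusted p = 0.112 by edgeR and 0.0463 by DESeq2). In the same fit 7 genes of the pathway lists fell. The 6 with the smallest p were Irf8 (-1.24 ± 0.22), Irf5 (-1.89 ± 0.36), Tmem173 (-2.14 ± 0.41), Tlr9, a sensor of unmethylated DNA (-2.34 ± 0.51), Ifngr1, a chain of the interferon gamma receptor (-0.79 ± 0.17), and Ly6e (-0.85 ± 0.19), all log2 changes, with adjusted p from 0.00264 for Irf8 to 0.0212 for Ly6e (edgeR).

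Corpus callosum, the white matter tract where oligodendrocytes are dense, had the highest mean member sums of bulk tissue in both genotypes and on both diets. In control mice the means on placebo were 194 CPM in callosum, 166 CPM in cortex and 136 CPM in striatum. On PLX5622 they were 208, 136 and 149 CPM. In MSA callosum the means were 359 CPM on PLX5622 and 286 CPM on placebo. On PLX5622, 30 of 34 members had a positive log2 change in MSA over control callosum, with a median of 0.88, while 46.1% of all genes were positive. On placebo the count was also 30 of 34, with a median of 0.50 and 50.4% of all genes positive. No single member passed the threshold by edgeR. On PLX5622 it was 0 of 34, against 0.195% of all genes, with 9 at an unadjusted p under 0.05, all higher in MSA, and 2 by DESeq2. On placebo it was 0 of 34, against 0.321% of all genes, with 7 at an unadjusted p under 0.05, all higher in MSA, and 1 by DESeq2. The 2 diets use separate libraries. The shared direction of the members has no test of its own here.

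Single libraries carried part of this. MSA callosum PLX5622 library 1 was the highest of the 9 callosum libraries for 19 of 34 members (55.9%) and for 18.3% of all genes, and only 59.6% of its reads were assigned. Without it, 27 of 34 members were positive on PLX5622, with a median of 0.62. Control callosum PLX5622 library 2, of the same comparison, had 59.5% of its reads assigned. That control library was the highest for 3 of 34 members and for 21.5% of all genes. MSA callosum placebo library 1 was the highest for 7 of 34 members. Without it, 21 of 34 were positive on placebo, with a median of 0.18, and without MSA callosum placebo library 2, 32 of 34 were, with a median of 0.65. Without the libraries of low assignment the median on placebo was 0.80. On PLX5622, the MSA and control libraries did not overlap for 18 of 34 members, all higher in MSA, against 17.4% of all genes that were higher and 7.88% that were lower without overlap. On placebo the libraries did not overlap for 13 members that were higher and 1 that was lower in MSA, against 17.2% and 18.0% of all genes.

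Of the 3 signal transduction factors, Irf9 alone separated the genotypes in callosum, and on PLX5622 but not on placebo. Irf9 had 23.9 and 17.5 CPM in MSA and 8.13 and 8.05 CPM in control callosum on PLX5622 (1.26 ± 0.29, adjusted p = 0.217 by edgeR and 0.0131 by DESeq2). On placebo it had 11.98 and 10.9 CPM in MSA and 11.2, 10.4 and 10.8 CPM in control callosum (0.10 ± 0.26). The difference between the diets was not called (1.16 ± 0.39, adjusted p = 0.828, edgeR). Irf9 overlaps Rnf31 on the same strand. Stat2 had 46.6 and 29.9 CPM in MSA and 22.9 and 32.8 CPM in control callosum on PLX5622, and 29.5 and 20.5 CPM in MSA and 26.8, 16.5 and 25.7 CPM in control callosum on placebo. Stat2 overlapped between genotypes on both diets. Irf7 had 6.896 and 6.48 CPM in MSA and 2.89 and 7.002 CPM in control callosum on PLX5622, and 2.17 and 3.26 CPM in MSA and 2.27, 1.91 and 3.59 CPM in control callosum on placebo. Irf7 overlapped as well, and its lowest values were on placebo in both genotypes.

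Trim30a was called by DESeq2 on PLX5622, with 7.55 and 4.78 CPM in MSA and 0.3799 and 1.75 CPM in control callosum (2.52 ± 0.69, adjusted p = 0.432 by edgeR and 0.0402 by DESeq2). On placebo it had 5.87 and 6.53 CPM in MSA and 2.16, 1.64 and 3.68 CPM in control callosum (1.30 ± 0.57, adjusted p = 0.579, edgeR). Both MSA libraries lay above all controls on each diet. In the PLX5622 libraries the homeostatic microglia genes summed to 334 to 419 CPM in MSA and 44.3 to 92.4 CPM in control callosum, and 13 of 20 were called higher in MSA. The part of these microglial transcripts in the level of Trim30a and the other members was not tested. Isg15 had 5.58 and 3.39 CPM in MSA and 1.67 and 2.57 CPM in control callosum on PLX5622, and 2.31 and 1.52 CPM in MSA and 1.62, 1.64 and 2.02 CPM in control callosum on placebo, so it overlapped on placebo only.

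Some effector genes, among them Ifit1, Ifit3, Mx1 and Oasl2, were highest of the callosum libraries in MSA PLX5622 library 1. Others peaked elsewhere, with Gbp2, Gbp3 and Igtp highest in MSA PLX5622 library 3. Ifih1, Bst2 and Ifitm3 were highest in MSA placebo library 1, and Zbp1 and Oas1a in MSA placebo library 2. Ifit3 had 20.1 and 10.3 CPM in MSA and 4.56 and 4.43 CPM in control callosum on PLX5622 (1.65 ± 0.47, adjusted p = 0.486), and 8.87 and 6.75 CPM in MSA and 4.21, 4.92 and 9.15 CPM in control callosum on placebo. Ifit1 had 28.6 and 7.97 CPM in MSA and 7.67 and 9.803 CPM in control callosum on PLX5622, and 4.93 and 3.05 CPM in MSA and 3.78, 3.01 and 5.93 CPM in control callosum on placebo. Mx1 had 6.35 and 0.996 CPM in MSA and 0.304 and 0.233 CPM in control callosum on PLX5622. The first value of the MSA PLX5622 pair stood apart from every other callosum library in these 3 genes. Ifit3 has a near-identical copy, Ifit3b, and how the counting treated reads that match both is not known, so both levels are uncertain. Oasl2 had 12.9 and 7.87 CPM in MSA and 4.18 and 4.201 CPM in control callosum on PLX5622 (1.21 ± 0.50), and 4.82 and 2.18 CPM in MSA and 1.73, 1.91 and 1.196 CPM in control callosum on placebo (1.23 ± 0.47). For Oasl2 both MSA libraries exceeded all control libraries on each diet, without a call (adjusted p = 0.9998 on PLX5622 and 0.503 on placebo, edgeR).

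Among the GTPases, Irgm1 had 26.7 and 14.8 CPM in MSA and 9.88 and 11.3 CPM in control callosum on PLX5622 (0.88 ± 0.33), and 12.7 and 11.1 CPM in MSA and 8.21, 10.7 and 9.104 CPM in control callosum on placebo. Gbp2 had 5.69 and 9.76 CPM in MSA and 7.83 and 3.38 CPM in control callosum on PLX5622, and 6.99 and 6.96 CPM in MSA and 2.38, 3.96 and 3.403 CPM in control callosum on placebo (1.12 ± 0.48, adjusted p = 0.563, edgeR). Gbp2 overlapped between genotypes on the drug only.

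Lgals3bp and Bst2 had another pattern, with their highest callosum levels in MSA mice on placebo. Lgals3bp had 53.3 and 27.6 CPM in MSA and 8.32, 11.9 and 7.27 CPM in control callosum on placebo (2.18 ± 0.54, adjusted p = 0.207 by edgeR and 0.0112 by DESeq2). On PLX5622 it had 7.55 and 18.4 CPM in MSA and 13.1 and 4.08 CPM in control callosum. It passed edgeR's threshold on placebo when the 2 groups were fitted alone (adjusted p = 0.00263), without the libraries of low assignment (0.0307), and without control PLX5622 library 1 (0.0292) or 2 (0.0304). Bst2 had 8.001 and 3.92 CPM in MSA and 1.405, 0.957 and 1.93 CPM in control callosum on placebo (2.07 ± 0.56, adjusted p = 0.263), and 2.35 and 5.28 CPM in MSA and 2.74 and 2.801 CPM in control callosum on PLX5622. Ifitm3 had 13.1 and 8.49 CPM in MSA and 7.67, 4.65 and 3.95 CPM in control callosum on placebo (1.03 ± 0.41), and 12.3 and 9.66 CPM in MSA and 5.39 and 3.27 CPM in control callosum on PLX5622 (1.22 ± 0.46).

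Choroid plexus markers moved with the placebo pair. They summed to 3253 to 8377 CPM in MSA and 257 to 353 CPM in control callosum on placebo, with 11 of 12 called higher, and to 416 to 472 CPM in MSA and 1462 to 1531 CPM in control callosum on PLX5622. All 10 endothelial markers had positive log2 changes in MSA on placebo, and 0 were called by edgeR, with 3 at an unadjusted p under 0.05. Other marker lists were also higher in the MSA placebo pair without overlap. Meningeal fibroblast markers summed to 332 to 564 CPM in MSA and 135 to 139 CPM in control callosum on placebo, and homeostatic microglia genes to 1191 to 1424 CPM in MSA and 843 to 956 CPM in control callosum. Monocyte and neutrophil markers summed to 28.1 to 28.2 CPM in MSA and 9.57 to 14.5 CPM in control callosum, and astrocyte markers to 7655 to 9498 CPM in MSA and 6405 to 6905 CPM in control callosum. The monocyte and neutrophil sum has the limit given for the sort. The part of the cells behind these lists in the levels of Lgals3bp, Bst2 and Ifitm3 was not tested.

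**Figure D4:**
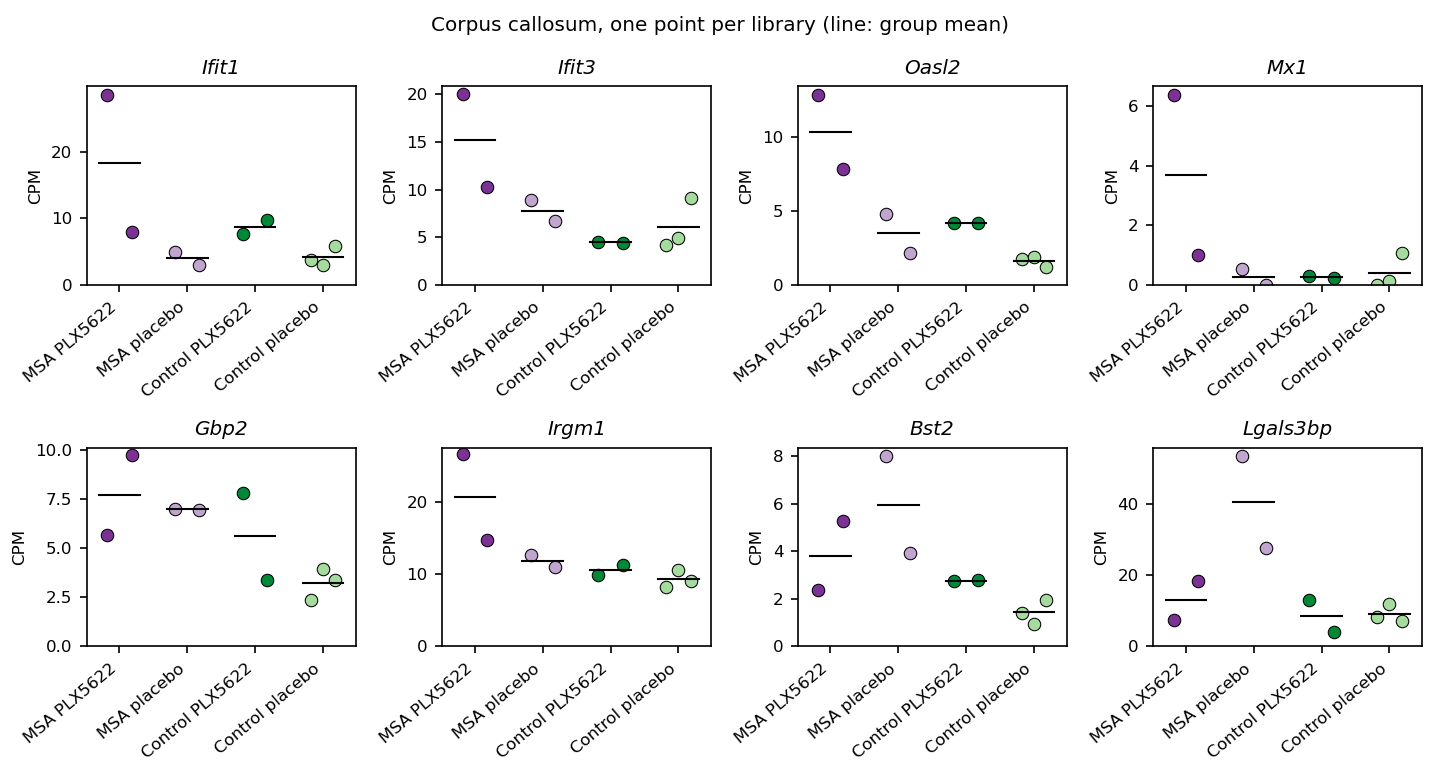
CPM of 8 members in corpus callosum, 1 point per library with a line at the group mean, in MSA mice on PLX5622 (n = 2) and placebo (n = 2) and control mice on PLX5622 (n = 2) and placebo (n = 3). Ifit1, Ifit3, Oasl2, Mx1 and Irgm1 peak in 1 MSA PLX5622 library, at 28.6 CPM for Ifit1, while Bst2 and Lgals3bp peak in an MSA placebo library, with Lgals3bp at 53.3 CPM.

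In cortex no member was called between the genotypes. On PLX5622, 0 of 30 members were called by edgeR between MSA and control cortex, against 0.151% of all genes, with 1 at an unadjusted p under 0.05 and 0 by DESeq2. On placebo, 0 of 30 were called, against 0% of all genes, with 2 at an unadjusted p under 0.05 and 0 by DESeq2. The median log2 change was 0.31 on PLX5622, with 26 of 30 positive, and 0.06 on placebo, with 16 of 30 positive. Over all genes the medians were -0.03 on PLX5622 and 0.02 on placebo. On PLX5622 homeostatic microglia genes summed to 263 to 333 CPM in MSA and 34.5 to 52.3 CPM in control cortex. The part of these transcripts in the members' direction was not tested, and the direction has no test of its own here. In MSA cortex Ifitm3 had 6.65, 4.29 and 4.29 CPM on PLX5622 and 7.603, 3.92 and 9.11 CPM on placebo, against 2.37, 4.53 and 3.54 CPM in placebo control cortex (0.98 ± 0.40, adjusted p = 0.828, edgeR). Ifit3 had 8.08, 4.83 and 6.13 CPM in MSA cortex on PLX5622 and 4.53, 8.18 and 5.76 CPM on placebo, where all 3 libraries lay above the control range of 2.23 to 4.31 CPM (0.84 ± 0.40, adjusted p = 0.828). In placebo cortex 1 of 30 members was higher and 1 lower in MSA without overlap, against 4.76% and 3.91% of all genes.

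The other members given per library overlapped between genotypes in placebo cortex. In MSA cortex Lgals3bp had 14.01, 8.41 and 17.3 CPM on PLX5622 and 17.3, 9.88 and 27.9 CPM on placebo. Stat2 had 17.96, 18.8 and 25.9 CPM on PLX5622 and 36.3, 12.9 and 21.8 CPM on placebo in MSA cortex, where the placebo libraries were the more spread. Irf7 had 4.13, 2.86 and 3.78 CPM on PLX5622 and 2.78, 2.896 and 3.08 CPM on placebo, and hardly varied. Isg15 had 1.62, 1.79 and 2.35 CPM on PLX5622 and 0.292, 2.55 and 0.6699 CPM on placebo, with a several-fold spread on placebo. Bst2 had 2.69, 1.43 and 0.511 CPM on PLX5622 and 0.877, 1.53 and 1.61 CPM on placebo. Oasl2 had 3.23, 1.25 and 2.86 CPM on PLX5622 and 3.36, 1.36 and 1.34 CPM on placebo. Neither gene was ordered by diet. Gbp2 had 0.898, 1.79 and 1.63 CPM on PLX5622 and 2.63, 1.02 and 2.55 CPM on placebo in MSA cortex. Irgm1 had 9.34, 9.2996 and 9.298 CPM on PLX5622 and 7.02, 9.03 and 13.8 CPM on placebo. The 3 Irgm1 values of MSA cortex on PLX5622 were nearly equal.

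In striatum 0 of 30 members were called on PLX5622 between MSA and control mice, against 0.222% of all genes, with 2 at an unadjusted p under 0.05, both lower in MSA, and 0 by DESeq2. On placebo 0 of 30 were called, against 0.0336% of all genes, with 1 at an unadjusted p under 0.05 and 0 by DESeq2. The median log2 change was -0.10 on PLX5622 and 0.33 on placebo. Eif2ak2 had 5.04, 6.72 and 6.89 CPM in MSA and 3.03 and 3.55 CPM in control striatum on placebo (0.92 ± 0.38, adjusted p = 0.999). Ifitm3 had 5.53, 7.36 and 7.16 CPM in MSA and 3.56 and 4.79 CPM in control striatum on placebo, and 7.34 and 4.61 CPM in MSA and 3.96 and 7.44 CPM in control striatum on PLX5622. For both genes the placebo groups did not overlap, without a call. On placebo, 4 of 30 members were higher and 1 lower in MSA striatum without overlap, against 8.12% and 9.78% of all genes. Sp100 had 0.193 and 0.136 CPM in MSA and 1.98 and 1.06 CPM in control striatum on PLX5622 (-3.12 ± 1.06, adjusted p = 0.4398).

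The remaining striatum values overlapped for the most part. Lgals3bp had 5.21 and 16.96 CPM in MSA and 9.703 and 18.6 CPM in control striatum on PLX5622, and 11.7, 15.7 and 35.8 CPM in MSA and 10.1 and 12.3 CPM in control striatum on placebo. The highest of these came from the MSA placebo library whose choroid plexus markers also summed highest in striatum, and the part of that tissue was not tested. Bst2 had 0.193 and 1.899 CPM in MSA and 0.522 and 1.91 CPM in control striatum on PLX5622, and 1.95, 0.63996 and 1.35 CPM in MSA and 1.19 and 1.07 CPM in control striatum on placebo. Irgm1 had 4.83 and 3.53 CPM in MSA and 4.38 and 6.81 CPM in control striatum on PLX5622, and 5.203, 7.84 and 4.46 CPM in MSA and 4.87 and 4.26 CPM in control striatum on placebo. Bst2 was lowest in an MSA library on PLX5622, and Irgm1 was highest in an MSA library on placebo. Stat2 had 21.1 and 21.7 CPM in MSA and 20.5 and 28.2 CPM in control striatum on PLX5622, and 22.3, 28.6 and 27.4 CPM in MSA and 15.1 and 25.8 CPM in control striatum on placebo. Irf7 had 2.12 and 0.814 CPM in MSA and 1.46 and 4.89 CPM in control striatum on PLX5622, and 0.813, 0.63996 and 2.701 CPM in MSA and 1.32 and 2.13 CPM in control striatum on placebo. Neither genotype nor diet ordered these values. Isg15 had 6.18 and 0.271 CPM in MSA and 1.25 and 0.851 CPM in control striatum on PLX5622, and 3.09, 2.56 and 0.8104 CPM in MSA and 0.658 and 0.888 CPM in control striatum on placebo. The 2 Isg15 values of MSA striatum on PLX5622 were its highest and its lowest in the region. Ifit3 had 5.79 and 3.93 CPM in MSA and 3.23 and 4.998 CPM in control striatum on PLX5622, and 4.23, 3.52 and 2.701 CPM in MSA and 4.08 and 2.49 CPM in control striatum on placebo. Oasl2 had 1.74 and 2.71 CPM in MSA and 3.86 and 4.57 CPM in control striatum on PLX5622, and 0.325, 2.88 and 3.38 CPM in MSA and 1.05 and 2.13 CPM in control striatum on placebo. For Oasl2, whose control levels were higher on PLX5622 than on placebo, the genotypes did not share an order across diets. Gbp2 had 5.02 and 1.36 CPM in MSA and 2.71 and 3.93 CPM in control striatum on PLX5622, and 4.72, 2.24 and 3.78 CPM in MSA and 1.98 and 3.37 CPM in control striatum on placebo. Gbp2 overlapped between genotypes on both diets.

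Averaged over the 3 regions, the genotype difference came closest to the threshold for 2 members on placebo. Lgals3bp was higher in MSA by 1.28 ± 0.34 (log2, adjusted p = 0.0922 by edgeR, 0.0128 by DESeq2) and Ifitm3 by 0.89 ± 0.24 (adjusted p = 0.09396 by edgeR, 0.0182 by DESeq2). Neither passed by edgeR, where 0 of 33 members and 0.504% of all genes were called, with 6 members at an unadjusted p under 0.05 and 2 by DESeq2. Without MSA striatum placebo library 1, Lgals3bp passed (adjusted p = 0.0492). On PLX5622, 0 of 33 members were called, against 1% of all genes, with 7 at an unadjusted p under 0.05 and 1 by DESeq2. That 1 was Irf9 (0.65 ± 0.18, adjusted p = 0.113 by edgeR and 0.0218 by DESeq2), which also passed edgeR's threshold without MSA cortex PLX5622 library 2 (0.0200). In the pathway lists, edgeR called Socs3 higher in MSA on placebo (1.27 ± 0.29, adjusted p = 0.0394). On PLX5622 it called Irf8, Tlr7, Tmem173, Irf5, Slfn8 and Ifit3b higher in MSA, with Irf8 at 1.61 ± 0.25 (adjusted p = 0.000248) and Ifit3b, uncertain as the copy of Ifit3, at 1.59 ± 0.32 (adjusted p = 0.00794). Irf8, Tlr7, Tmem173, Irf5 and Slfn8 had also fallen with the drug in control brains, and the 2 comparisons share the control PLX5622 libraries.

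Whether the drug acted differently in the genotypes was tested as the drug's log2 change in MSA minus that in control mice. By edgeR 0 of 30 members were called in cortex, against 0.0959% of all genes, with 1 at an unadjusted p under 0.05. In callosum 0 of 34 were called, against 0.264% of all genes, with 1 at an unadjusted p under 0.05. In striatum 0 of 30 were called, against 0.0874% of all genes, with 3 at an unadjusted p under 0.05. Averaged over regions 0 of 33 were called, against 0.361% of all genes, with 5 at an unadjusted p under 0.05. DESeq2 called 0 in each of these 4 fits. The smallest p over regions was that of Sp100 (-1.83 ± 0.66, adjusted p = 0.304, edgeR), and the next was Irf9 (0.63 ± 0.25, adjusted p = 0.339). Among pathway genes Tlr7 (4.83 ± 0.83, adjusted p = 0.00277) and Slfn8 (6.11 ± 1.23, adjusted p = 0.0196) were called. On PLX5622, Slfn8 averaged 0 CPM in control cortex and control striatum. Tlr7 averaged 0 CPM in control callosum and 0.106 CPM in control striatum on the drug. The size of both changes is therefore uncertain.

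Sorted microglia of MSA mice did not differ from those of control mice in any member by edgeR. The count was 0 of 33, against 0.61% of all genes, with 3 at an unadjusted p under 0.05 and 0 by DESeq2. Those 3 were Ifih1 (0.33 ± 0.12, adjusted p = 0.372), Rsad2 (1.37 ± 0.57, adjusted p = 0.444) and, lower in MSA, Gbp7 (-0.28 ± 0.11, adjusted p = 0.399). Only Ifih1 had all MSA libraries, at 22.8, 26.04 and 31.1 CPM, above all control libraries, at 20.9, 18.8 and 21.6 CPM. For all genes 12.4% were higher and 5.06% lower without overlap.

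Single libraries moved the direction. MSA microglia library 3 was the highest of the 6 for 26 of 33 members (78.8%) and for 26.8% of all genes. With it, 26 of 33 members had a positive log2 change and a median of 0.26, against a median of 0.005 over all genes. Without it, 14 of 33 were positive, with a median of -0.04. Without control microglia library 3, 21 of 33 were positive, with a median of 0.10, and without MSA library 1, 29 of 33 were, with a median of 0.42. Oasl2 had 8.17, 6.11 and 19.996 CPM in MSA and 10.6, 5.38 and 3.55 CPM in control microglia. Irf7 had 6.23, 7.58 and 18.99 CPM in MSA and 10.8, 10.8 and 4.87 CPM in control microglia. Lgals3bp had 206, 238 and 339 CPM in MSA and 268, 172 and 148 CPM in control microglia. Library 3, the last MSA value, was the highest in these 3 genes, and the other 2 MSA values lay among the controls. Irgm1 had 52.6, 54.6 and 81.7 CPM in MSA and 56.3, 50.99 and 48.96 CPM in control microglia. Ifit3 had 4.98, 6.11 and 11.4 CPM in MSA and 7.37, 6.85 and 2.72 CPM in control microglia. Stat2 had 49.8, 57.3 and 73.8 CPM in MSA and 59.9, 48.9 and 38.7 CPM in control microglia. The same library was again the highest in each of these 3 genes. Ifitm3 had 5.12, 9.396 and 11.1 CPM in MSA and 10.6, 5.503 and 3.72 CPM in control microglia. Ifitm3 followed the same order. Isg15, Gbp2 and Bst2 were among the members that did not. Isg15 had 1.799, 1.92 and 3.19 CPM in MSA and 3.75, 2.45 and 2.06 CPM in control microglia. Gbp2 had 7.75, 8.04 and 10.8 CPM in MSA and 11.3, 7.22 and 6.77 CPM in control microglia. Bst2 had 35.7, 47.7 and 42.01 CPM in MSA and 43.1, 28.1 and 25.5 CPM in control microglia.

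Precision here was higher than in bulk tissue for the abundant members. Trim30a averaged 119 ± 18.6 CPM in MSA and 116 ± 12.8 CPM in control microglia (SD, n = 3 each), with a 95% interval of the log2 change of -0.28 to 0.25. The interval was -0.30 to 0.21 for Igtp, -0.25 to 0.18 for Ifi35 and -0.19 to 0.21 for Trim25. It was far wider for Oas1a (-1.49 to 2.92), Irf7 (-1.11 to 1.62) and Rtp4 (-1.32 to 1.41), a receptor transporter protein. No pathway gene was called by edgeR in this comparison, in 14 receptor and JAK-STAT genes with 1 at an unadjusted p under 0.05, 17 sensing genes with 0, and 37 further interferon-stimulated genes with 6.

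**Figure D5:**
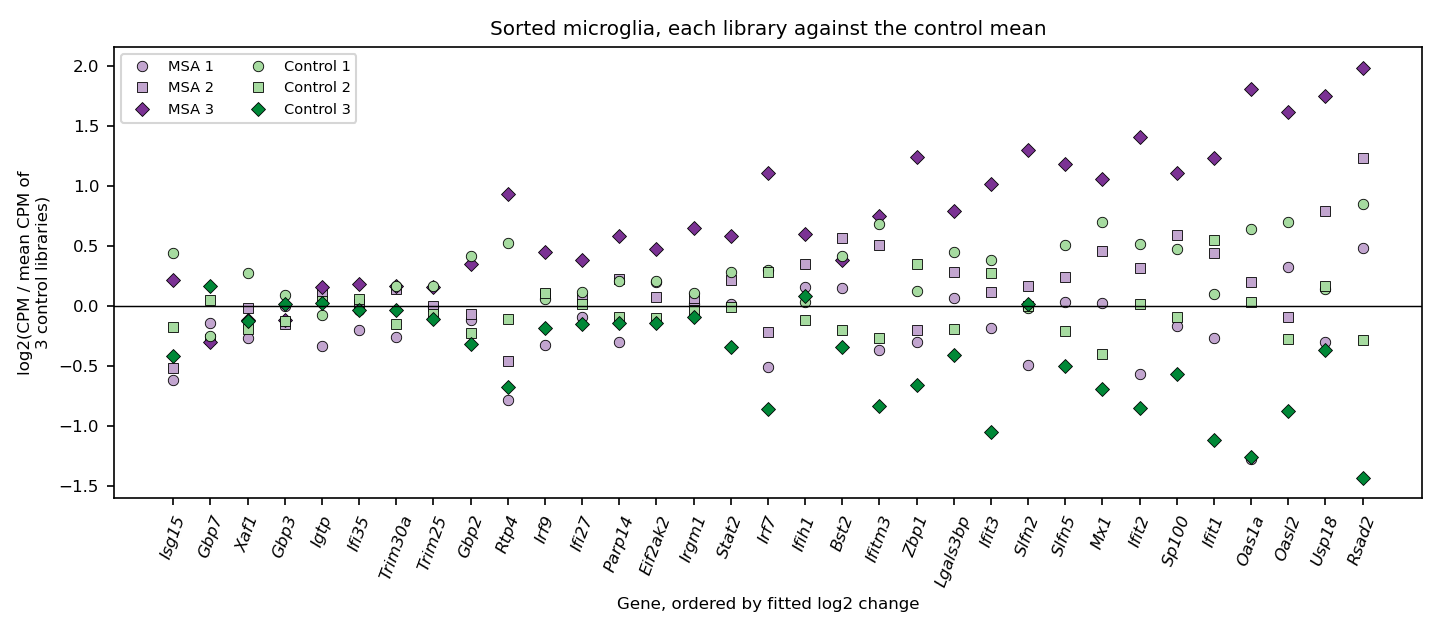
Log2 of each microglia library's CPM over the mean of the 3 control libraries (vertical) for 33 members, ordered by fitted log2 change (horizontal); purple, MSA; green, control. The dark purple diamonds, MSA library 3, lie highest for 26 of 33 genes, and the other MSA libraries mix with the controls.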

How the data were processed

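Poly(A) RNA-seq libraries were analysed, 30 of bulk brain tissue and 6 of sorted microglia, with groups taken from the sample labels. The deposited values were whole-number counts per gene that the authors made, and TPM values that the authors normalised to length and depth; STAR, HOMER, DESeq2 and mm10 are named, without versions or roles, in the submitters' processing notes. No source used here says whether strand was used in counting, and overlapping genes may share reads. The TPM columns sum to 453451 to 559022 over the genes analysed, and TPM was used for ranking levels between genes. CPM was computed from the counts. The counts were tested with edgeR 4.0.16 in R 4.3.3 (filterByExpr with a minimum count of 10, TMM scaling, robust quasi-likelihood fit), with 1 fit of 4 groups in each region, 1 of the 2 microglia groups, 1 of all 30 bulk libraries and 1 of control microglia and cortex with their MSA counterparts. The test was checked on simulated data with known changes. P-values were adjusted over all genes tested in a fit. Alternatives were DESeq2 1.42.0, its size factors, no filter, a replicate block, single libraries left out, 2 groups alone, libraries with under 70% of reads assigned left out, and a limma 3.58.1 random effect. The 34 genes, the pathway lists and the marker lists were chosen with earlier results of these data known. Genes named with values per library are 10 fixed members and up to 12 called members per comparison. Other members, such as Ifit1, Irf9, Trim30a, Mx1, Eif2ak2, Parp14 and Sp100, are also given per library where edgeR called none. That choice lay outside this rule. The pathway genes named are among those called, up to 6 per comparison. Replicate numbers were not taken to pair the samples. One pathway gene is not reported here.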

Additional observations from a re-analysis of the deposited data

How the results depend on the processing

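For control microglia over cortex, 26 members were called under each alternative that kept all libraries, and 26 to 29 with 1 library left out. All other comparisons had 0 called members in the fit as reported. DESeq2 called 1 in placebo callosum between genotypes, 2 on PLX5622 there, 1 with the drug in MSA striatum, 2 between genotypes averaged over regions on placebo and 1 on PLX5622, 1 with the drug in MSA averaged over regions, and 1 between callosum and cortex. The 2 groups fitted alone gave 1 in placebo callosum, and leaving out libraries of low assignment gave 1 there and 1 for the drug in control mice averaged over regions. With a replicate block, 2 members were called between genotypes in striatum on PLX5622, Slfn5 and Lgals3bp, both lower in MSA, and 3 with the drug in MSA striatum, Slfn5, Lgals3bp and Sp100; the block changed no other count by more than 1.5 times, and the numbers were not taken as pairs, since correlations of the deviations passed 0.1 in 6 of 18 pairs in cortex, 5 of 10 in striatum, 1 of 10 in callosum and 1 of 3 in microglia. With 1 library left out, 0 to 1 members were called between genotypes in placebo callosum, with the drug in MSA striatum, between genotypes averaged over regions on placebo and on PLX5622, and between striatum and cortex. None of the 43 changes of single genes recomputed under the alternatives reversed; other named changes were not recomputed. The cause of these differences was not tested. Depth limits the bulk results: 23 of 34 members had a median under 5 CPM over the bulk libraries, and callosum and striatum rest on 2 or 3 libraries a group.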

Other observations

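Sp100 and Rtp4 were chosen after their bulk tissue values were seen. Sp100 averaged 2.05 ± 1.21 CPM in MSA and 3.25 ± 2.01 CPM in control callosum on PLX5622, and 1.92 ± 1.18 CPM in MSA and 0.795 ± 0.414 CPM in control callosum on placebo. The drug's log2 change in control callosum was 1.94 ± 0.76 (adjusted p = 0.9997, edgeR), opposite in sign to that in MSA striatum. Rtp4 averaged 0.836 ± 0.173 CPM in MSA and 2.76 ± 1.76 CPM in control cortex on placebo (-1.67 ± 0.75, adjusted p = 0.828, edgeR), where 16 of 30 members had a positive log2 change. Neither of these 2 changes was called.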
